A study of Mus musculus with 2 samples.

Results

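Cells positive for a chromogranin A reporter, which marks enteroendocrine cells, were compared with the remaining cells of mouse small-intestinal organoids. The comparison covered the genes of antigen presentation and of the interferon response. They were chosen by the start of their symbols: the H2 genes, the Ifit, Ifitm, Ifi, Oas, Irf, Stat, Gbp, Irgm and Isg families, and *Tap1*, *Tap2*, *Tapbp* and its relative, *B2m*, *Psmb8*, *Psmb9*, *Psmb10*, *Mx1*, *Mx2*, *Usp18*, *Rsad2*, *Ciita* and *Cd74*. The rule found 123 of the 23793 gene rows, and 4 of the 123 join several symbols. The GFP+ library was made from sorted cells with the fluorescence of a chromogranin A reporter (ChgA-GFP), and the GFP- library from the remaining cells without it, whatever their type. Both came from ChgA-GFP organoids grown from isolated crypts in Matrigel with epidermal growth factor, noggin and R-spondin. The fluorescent cells were about 1% of the epithelial cells, and polyadenylated RNA was amplified with a kit for very small inputs. The labels do not give the age of the mice or how many were used. There was 1 library per fraction, so the differences below rest on single libraries, without a test.

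Class I molecules of the major histocompatibility complex, called H2 in mice, show peptides from inside the cell to CD8 T cells and to natural killer cells. They consist of a heavy chain and the light chain *B2m*, and their peptides are cut by proteasomes, carried by the transporter *Tap1* and *Tap2* and loaded with the help of *Tapbp*. Class II molecules show peptides from endosomes to CD4 T cells and need the chaperone *Cd74* and the coactivator *Ciita*. Interferons raise many of these genes through the Stat and Irf factors, and also raise antiviral proteins such as the Ifit, Oas, Mx and Ifitm families. Some gut epithelial cells make class I and class II genes at rest and more of them under interferon.

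Of the 123 members, 64 reached 1 FPKM (sequenced fragments per kilobase of a gene's transcript, scaled to library size) in at least 1 library and 59 did not. Among the 59 were 21 listed at 0 in both libraries. Differences are given as log2((FPKM + 1) in GFP+ / (FPKM + 1) in GFP-), and a gene was set apart when it differed by at least 4-fold on this scale. By this rule 4 members were higher in GFP+, *Usp18*, *H2-Ab1*, *Isg20* and *Ifit1*, which is 6.25% of the 64, and 7.09% of all 11868 genes of at least 1 FPKM were higher. A further 3 members were lower, *Ifitm3*, *Ifitm2* and *Ifi27l2b*, which is 4.69% of the 64, and 4.59% of all genes were lower. The members as a set thus passed the rule about as often as any gene. The 64 had a median difference of 0.16, with 33 above 0 and 31 below, and all genes had a median of -0.12. In such bulk libraries, fewer cells of a type and less RNA per cell cannot be told apart. Of the 64, 11 were below 1 FPKM in GFP- only and 2 in GFP+ only, so that the filter on low values fixed the sign of their difference. *Usp18*, *H2-Ab1* and *Ifit1* were among the 11. Of the 51 members that reached 1 FPKM in each of the libraries, 22 (43.1%) had a difference above 0, and 41.3% of the 10199 such genes overall did. The 30 members of at least 10 FPKM in both had a median difference of -0.50, and the 5563 such genes had one of -0.48.

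The deposited scaling bears on these counts. Over genes that reached 10 FPKM in each library, the median ratio was -0.50 on the log2 scale. With it set to 0, 7 of 65 members were higher and 2 lower, and 1317 of all 12157 genes were higher. Of all genes that passed the rule, 87.7% were higher, against 60.7% as deposited. With both libraries rescaled to a common total, 10 of 74 members were higher and 1 lower, and 1717 of all 12778 genes were higher. Of all genes that passed the rule, 91.8% were then higher. The count of higher members thus rose along with that of all genes. The median over all tested genes was -0.12 as deposited, 0.35 with the median ratio set to 0 and 0.50 with a common total. Of the 64 members, *H2-K1*, *Tap1*, *Irf2*, *Irf9*, *Irf2bp2* and *Stat5a* were below 0 as deposited and above 0 under both other scalings, and *Irf2bp1* was above 0 under the common total. The other 57 kept the sign of their difference.

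**Figure D1:**
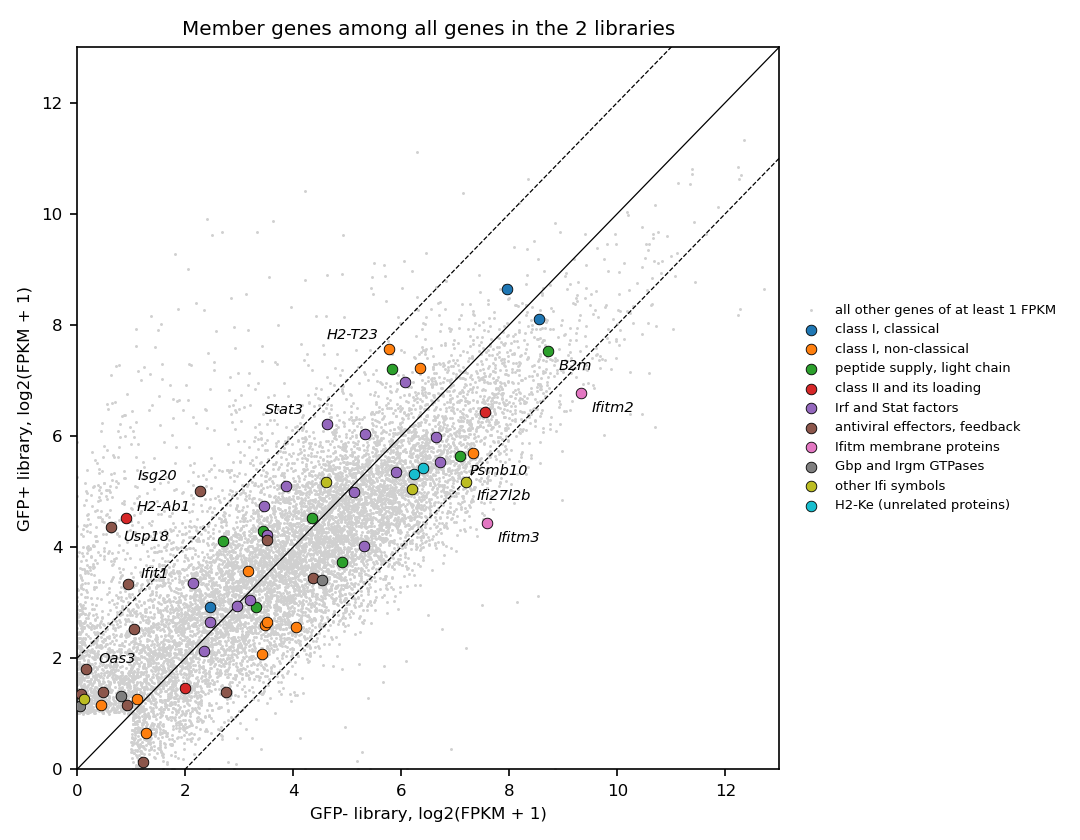
Each point is a gene of at least 1 FPKM in either library, with log2(FPKM + 1) in the GFP- library on the x axis and in the GFP+ library on the y axis. Grey points are all other genes and coloured points the 64 members by role. The solid line marks equal values and the dashed lines a 4-fold difference, which 4 members passed as higher and 3 as lower.

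Epithelial markers were abundant and immune markers low in both libraries. The 6 epithelial markers, among them *Epcam* and *Cdh1*, summed to 4392 FPKM in GFP+ cells and 8376 FPKM in GFP- cells. The enterochromaffin marker *Tph1*, which makes the precursor of serotonin, was at 1359 FPKM in GFP+ cells and 17.5 FPKM in GFP- cells. Of 19 T cell, B cell and myeloid markers, 17 were in the files and summed to 4.33 FPKM in GFP+ cells and 15.7 FPKM in GFP- cells. Of the 17, 7 were at 0 in GFP+ and 6 in GFP-. The highest of them was *Cd14*, at 1.66 FPKM in GFP+ cells and 12.4 FPKM in GFP- cells. Among myeloid markers, *Tyrobp*, *Fcer1g* and *Csf1r* were higher in GFP+, with 0.834, 0.723 and 0.192 FPKM against 0, 0.0807 and 0. The T cell marker *Itgae* was higher too, with 0.0839 against 0.0574. *Itgam*, *Cd79b* and *Ms4a1* were lower in GFP+, with 0.270, 0.473 and 0.0702 FPKM against 1.03, 1.81 and 0.237. *Cd3e*, *Cd8a* and *Cd4* were at 0 in GFP+ and did not exceed 0.0404 FPKM in GFP-. *Cd79a*, *Cd3g* and *Itgax* were at 0 in both libraries, and *Ptprc*, the common leukocyte antigen, was at 0.0224 FPKM in each. The 4 endothelial markers summed to 10.9 FPKM in GFP+, of which *Pecam1* made up 10.4 FPKM, and to 0.391 FPKM in GFP-. The 5 fibroblast markers summed to 3.68 FPKM in GFP+ cells and 0.0191 FPKM in GFP- cells.

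Promoters were read from RefSeq (GRCm38.p6, the assembly also called mm10) for 90 of the 123 members, as the 250 bases before and 50 bases after the start listed first for each gene. They were searched on both strands for GAAANNGAA, a short core of the interferon-stimulated response element bound by Stat and Irf factors, and for TTCNNNGAA, a site of Stat dimers. GAAANNGAA was present in 26 of the 90 (28.9%) and in 8.57% of all 27025 promoters, also 1 per gene. Of the 14 members with several starts listed, *Ifi203* and *Stat4* held it at another start alone, which makes 28 of the 90 at any start. TTCNNNGAA was present in 18 (20.0%) and in 8.47% of all promoters, and the motifs shared bases in 1 member promoter. The stretches below end at the base before the start and are shown 5′ to 3′ on the strand of the gene, with every match in capitals. They show members that carry such motifs and lay on opposite sides of 0 (*Ifit1*, *H2-T23* and *Oas3* against *Ifitm2* and *B2m*). Of these, *Ifit1* and *Oas3* were below 1 FPKM in GFP- only, so that the filter on low values fixed their sign. Also shown is *Isg15*, with overlapping copies and under 1 FPKM in both libraries. *Isg20*, at least 4-fold higher in GFP+ and without GAAANNGAA here, shows a match of TTCNNNGAA.

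*Ifit1* (chr19:34640739-34640888, plus strand): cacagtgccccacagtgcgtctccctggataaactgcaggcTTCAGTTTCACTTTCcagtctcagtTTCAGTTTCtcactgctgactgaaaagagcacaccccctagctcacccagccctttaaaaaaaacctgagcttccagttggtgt
*Oas3* (chr5:120777660-120777809, minus strand): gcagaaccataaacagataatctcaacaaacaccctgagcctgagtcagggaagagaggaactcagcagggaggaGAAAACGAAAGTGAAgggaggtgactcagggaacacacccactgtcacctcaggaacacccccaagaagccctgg
*H2-T23* (chr17:36032702-36032851, minus strand): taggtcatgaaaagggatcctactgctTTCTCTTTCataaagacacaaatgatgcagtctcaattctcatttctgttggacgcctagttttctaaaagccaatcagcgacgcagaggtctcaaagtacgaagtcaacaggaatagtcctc
*Isg15* (chr4:156200819-156200968, minus strand): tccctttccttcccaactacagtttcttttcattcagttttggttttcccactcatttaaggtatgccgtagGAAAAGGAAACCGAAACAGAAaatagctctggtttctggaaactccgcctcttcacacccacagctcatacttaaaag
*Isg20* (chr7:78913274-78913423, plus strand): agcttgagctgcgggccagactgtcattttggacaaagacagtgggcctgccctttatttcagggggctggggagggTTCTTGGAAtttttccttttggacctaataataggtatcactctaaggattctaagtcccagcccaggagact
*B2m* (chr2:122147537-122147686, plus strand): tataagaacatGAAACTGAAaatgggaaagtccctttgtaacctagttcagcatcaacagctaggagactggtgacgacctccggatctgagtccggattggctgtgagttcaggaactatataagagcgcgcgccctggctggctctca
*Ifitm2* (chr7:140955962-140956111, minus strand): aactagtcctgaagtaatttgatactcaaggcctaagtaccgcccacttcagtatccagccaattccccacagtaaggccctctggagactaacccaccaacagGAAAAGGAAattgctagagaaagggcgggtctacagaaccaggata

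Members with GAAANNGAA at the first listed start lay on both sides of 0. Of the 26, 10 were below 1 FPKM in both libraries. Of the 10 that had at least 1 FPKM in both, 3 were above 0 and 7 below, with a median difference of -0.63. Of 31 such members without the motif, 12 were above 0 and 19 below, with a median of -0.44. At that start all 7 Gbp and Irgm GTPases with a promoter held the motif (*Gbp3* not at its other start), and so did 8 of 15 antiviral effectors. None of 9 class II and loading genes did, and 2 of 19 non-classical class I genes did.

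The heavy chains of class I were among the most abundant members in both fractions. The row joining *H2-D1* and *H2-L* (chromosome 17, 35263094 to 35267497) was at 398 FPKM in GFP+ cells and 247 FPKM in GFP- cells, a ratio of 1.61. *H2-K1* (chromosome 17, 33996012 to 34000333) was at 275 FPKM in GFP+ cells and 374 FPKM in GFP- cells, a ratio of 0.734. The order of these classical heavy chains was thus opposite in the 2 libraries, with *H2-D1* and *H2-L* at 1.45 times *H2-K1* in GFP+ and at 0.661 times in GFP-. *H2-K2* was at 6.51 FPKM in GFP+ cells and 4.48 FPKM in GFP- cells. None of these 3 rows passed the rule. Class I genes are close copies of one another and the haplotype of the mice is not given, so reads may have been split between them and single values are uncertain.

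Of 25 non-classical class I genes, 11 reached 1 FPKM, 5 of them above 0 and 6 below, and none passed the rule. *H2-T23*, which encodes Qa-1, a ligand of inhibitory receptors on natural killer and T cells, had the highest difference of the group. It was at 188 FPKM in GFP+ cells and 53.6 FPKM in GFP- cells, a log2 difference of 1.79, and it passed the rule under both other scalings at 2.29 and 2.42. Its listed locus (chromosome 17, 35994504 to 36038174) is shared with *H2-T24*, at 0.131 FPKM in GFP+ cells and 0.00821 FPKM in GFP- cells, and with a further row. *H2-Q2* was at 147 FPKM in GFP+ cells and 80.6 FPKM in GFP- cells, and the joined row of *H2-T22* and *H2-T9* at 10.8 FPKM in GFP+ cells and 7.97 FPKM in GFP- cells.

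Other non-classical genes lay below 0. *H2-Q10*, a secreted class I protein known from the liver, was at 50.9 FPKM in GFP+ cells and 159 FPKM in GFP- cells, a difference of -1.63. *H2-T3*, the thymus leukaemia antigen of gut epithelium and a ligand of CD8, was at 4.87 FPKM in GFP+ cells and 15.6 FPKM in GFP- cells, a difference of -1.50. *H2-Q7*, which encodes Qa-2, was at 3.23 FPKM in GFP+ cells and 9.66 FPKM in GFP- cells. *H2-M3*, which presents formylated bacterial peptides, was at 5.05 FPKM in GFP+ cells and 10.2 FPKM in GFP- cells, and *H2-Q1* at 5.24 FPKM in GFP+ cells and 10.4 FPKM in GFP- cells. These 5 genes stayed below 0 under both other scalings. *H2-Q5*, *H2-Q8* and *H2-Bl* lay between 0.362 and 1.41 FPKM in both libraries. All 6 genes of the H2-M10 series, known from the vomeronasal organ, were listed at 0 in both, as were *H2-M1*, *H2-M9* and *H2-M11*. The remaining *H2-M2*, *H2-M5*, *H2-Q4*, *H2-T10* and *H2-T24* were below 1 FPKM in both.

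Beside the heavy chains, the light chain and the genes of peptide supply split evenly, 4 above 0 and 4 below, with none past the rule. *B2m*, the light chain, was at 183 FPKM in GFP+ cells and 420 FPKM in GFP- cells, a difference of -1.19, on a locus shared with 2 other rows. Relative to *B2m* in the same library, *H2-K1* stood at 1.50 in GFP+ and 0.890 in GFP-, and *H2-T23* at 1.02 in GFP+ and 0.127 in GFP-, on the FPKM scale. *Tapbp*, which holds class I molecules at the transporter, was at 146 FPKM in GFP+ cells and 55.9 FPKM in GFP- cells, and *Tap2* was at 18.6 FPKM in GFP+ cells and 9.82 FPKM in GFP- cells. *Tap1*, the other chain of the transporter, was at 6.52 FPKM in GFP+ cells and 8.91 FPKM in GFP- cells. *Tap2* was therefore at 2.86 times *Tap1* in GFP+ and at 1.10 times in GFP-. *Tapbpl*, a second peptide editor, was nearly level at 22.0 FPKM in GFP+ cells and 19.5 FPKM in GFP- cells.

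The interferon-induced proteasome subunits lay on both sides of 0. These subunits, *Psmb8*, *Psmb9* and *Psmb10*, take the place of the constitutive catalytic subunits *Psmb5*, *Psmb6* and *Psmb7*. *Psmb8* was at 16.2 FPKM in GFP+ cells and 5.50 FPKM in GFP- cells, a difference of 1.40 that reached 2.06 with a common total. *Psmb9* was at 12.3 FPKM in GFP+ cells and 28.8 FPKM in GFP- cells, and *Psmb10* at 48.6 FPKM in GFP+ cells and 134 FPKM in GFP- cells, differences of -1.16 and -1.45. The constitutive subunits were close to one another, with *Psmb5* at -1.30 (on a row joined with a microRNA), *Psmb6* at -1.35 and *Psmb7* at -1.39. *Psmb8* therefore stood at 15.6% of *Psmb5* in GFP+ and at 2.13% in GFP-. *Psmb9* stood at 7.65% of *Psmb6* in GFP+ and 7.02% in GFP-, and *Psmb10* at 85.1% of *Psmb7* in GFP+ and 88.6% in GFP-.

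*Psmb9* and *Tap1* start head to head, 225 bases apart, and *Psmb8* and *Tap2* follow within the same stretch of chromosome 17. The bases between the starts of *Psmb9* and *Tap1* are printed because both genes share them, and neither motif was found in them. The FPKM ratio of GFP+ to GFP- was 0.427 for *Psmb9* and 0.731 for *Tap1*, which was above 0 in log2 difference under both other scalings. *Psmb8*, the next gene on the side of *Tap1*, had a ratio of 2.95. An annotated read-through gene, *Gm20496*, overlaps *Psmb8* and *Tap2*, and how the counting treated it is not given in the sources used here.

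*Psmb9* to *Tap1* (chr17:34187331-34187555, plus strand): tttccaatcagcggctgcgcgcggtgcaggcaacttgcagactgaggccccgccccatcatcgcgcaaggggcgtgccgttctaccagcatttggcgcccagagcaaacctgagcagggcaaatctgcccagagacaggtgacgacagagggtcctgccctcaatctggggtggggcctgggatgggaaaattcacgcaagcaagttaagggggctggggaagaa

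**Figure D2:**
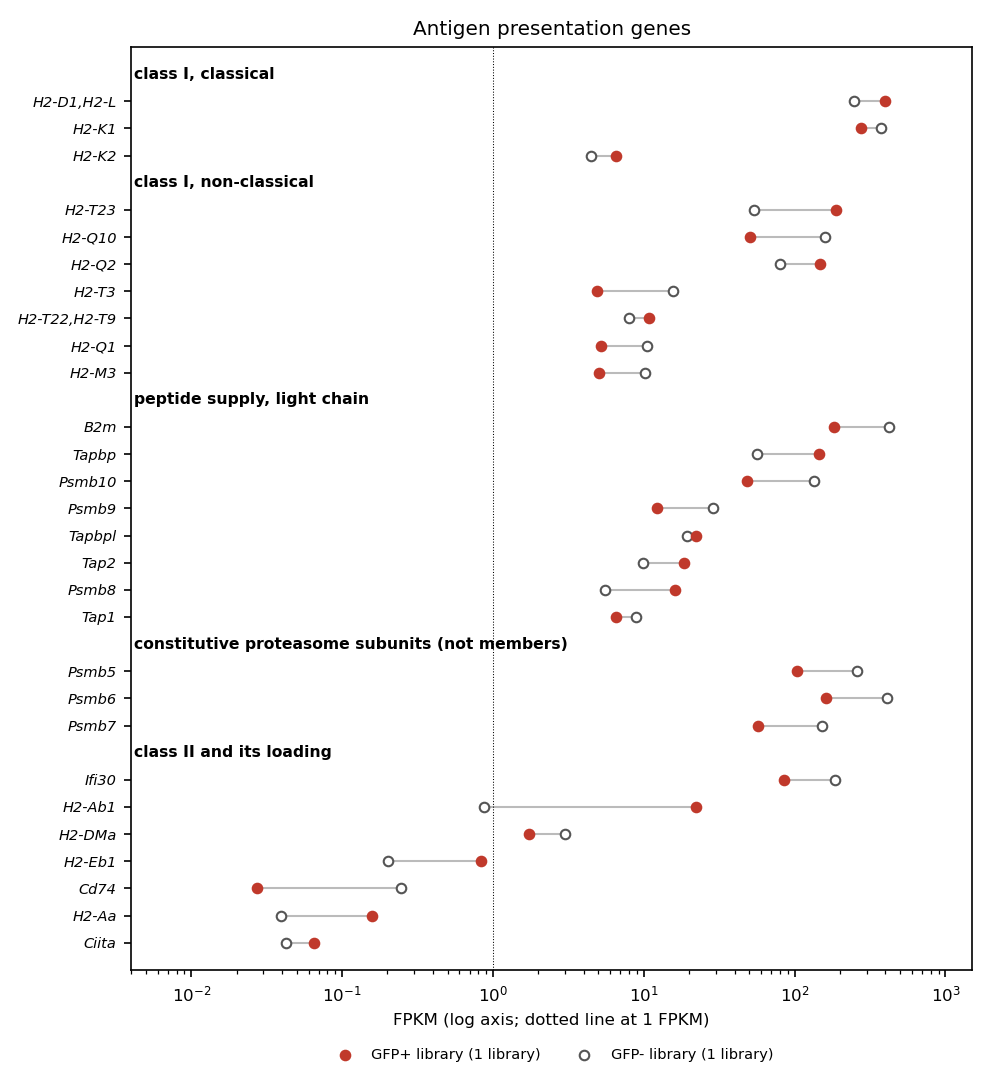
FPKM (log axis) of the named antigen presentation genes, with the GFP+ library as filled and the GFP- library as open points, by role. *Psmb5*, *Psmb6* and *Psmb7* are shown for comparison and are not members. *H2-Ab1* stands at 22.1 FPKM in GFP+ cells and 0.867 FPKM in GFP- cells, while *H2-Aa* and *Cd74* lie below 1 FPKM in both.

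Among class II genes, 1 chain was abundant in GFP+ and its partners were not. *H2-Ab1*, the beta chain of I-A (chromosome 17, 34263227 to 34269418), was at 22.1 FPKM in GFP+ cells and 0.867 FPKM in GFP- cells, a ratio of 25.4 and a difference of 3.63. *H2-Aa*, the alpha chain it pairs with, was at 0.157 FPKM in GFP+ cells and 0.0393 FPKM in GFP- cells. From the smallest step between low values, taken as 1 fragment, these values stand for about 1599 fragments of *H2-Ab1* in GFP+ and 62 in GFP-, and for about 11 fragments of *H2-Aa* in GFP+ and 3 in GFP-. *H2-Eb1*, the beta chain of I-E, was at 0.829 FPKM in GFP+ cells and 0.202 FPKM in GFP- cells. *Cd74*, on a row joined with a microRNA, was at 0.0274 FPKM in GFP+ cells and 0.247 FPKM in GFP- cells, and *Ciita* at 0.0651 FPKM in GFP+ cells and 0.0423 FPKM in GFP- cells. Professional antigen-presenting cells express all of these genes together, and the part of such cells in these values was not tested. The endothelial marker *Pecam1* was higher in GFP+ as well, at 10.4 FPKM in GFP+ cells and 0.187 FPKM in GFP- cells, while *Cdh5*, *Kdr* and *Vwf* were at or below 0.475 FPKM in GFP+. The part of non-epithelial RNA in the *H2-Ab1* value was not tested.

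Of the class II and loading genes, 2 reached 1 FPKM in both libraries, *Ifi30* and *H2-DMa*. *Ifi30*, a thiol reductase of lysosomes, was at 85.4 FPKM in GFP+ cells and 187 FPKM in GFP- cells, a difference of -1.12, and *H2-DMa*, which exchanges class II peptides, was at 1.74 FPKM in GFP+ cells and 3.01 FPKM in GFP- cells. *H2-Oa* and *H2-Ob* were listed at 0 in both libraries. The other 4 H2 genes of the group, *H2-DMb1*, *H2-DMb2*, *H2-Eb2* and the pseudogene *H2-Ea-ps*, were at or below 0.232 FPKM in either. Of 12 further genes of class I and class II assembly, 11 reached 1 FPKM, none passed the rule, and 3 were above 0 (7 under either other scaling). The protease *Ctss* had the lowest difference, -1.77, with 7.74 FPKM in GFP+ cells and 28.9 FPKM in GFP- cells. The class I coactivator *Nlrc5* was at 0.00470 FPKM in each library.

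**Figure D3:**
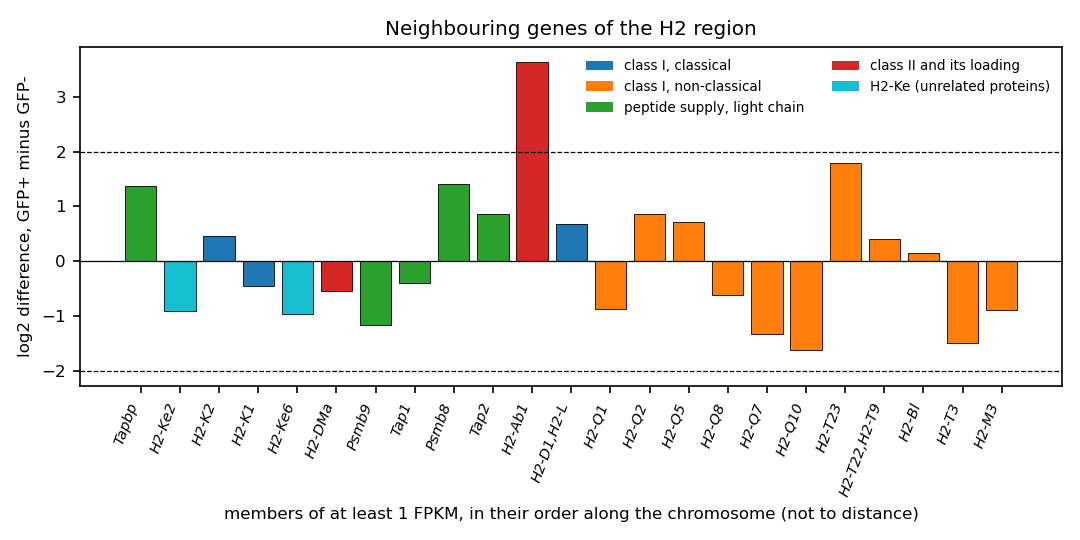
Bars give the log2 difference, GFP+ minus GFP-, of the 23 members on chromosome 17 of at least 1 FPKM, in their order along the chromosome and coloured by role. Of the 23, 11 are above 0 and 12 below, and *H2-Ab1* at 3.63 is the single bar past the dashed lines of the 4-fold rule.

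Along the H2 region of chromosome 17, which holds 45 of the 123 members within 3564 kb, members above 0 lay among members below 0. Of the 23 that reached 1 FPKM, 11 were above 0 and 12 below. The symbols *H2-Ke2* and *H2-Ke6* lie in this region but encode a prefoldin subunit and a steroid dehydrogenase. *H2-Ke2* was at 38.9 FPKM in GFP+ cells and 74.1 FPKM in GFP- cells, and *H2-Ke6* at 42.0 FPKM in GFP+ cells and 83.3 FPKM in GFP- cells.

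The transcription factors of the response were present in both fractions. Of 19 Irf and Stat symbols, 16 reached 1 FPKM, all of them in both libraries, with 8 above 0 and 8 below as deposited and 12 or 13 above 0 under the other scalings, and none passed the rule. *Stat3*, which acts downstream of interleukin-6 and interleukin-22 receptors, was at 72.8 FPKM in GFP+ cells and 23.8 FPKM in GFP- cells. Its difference of 1.58 was the highest of the group and became 2.07 and 2.21 under the other scalings. *Irf7*, which amplifies type I interferon production, was at 25.6 FPKM in GFP+ cells and 10.0 FPKM in GFP- cells. *Stat2*, a partner in the type I interferon complex, was at 9.16 FPKM in GFP+ cells and 3.44 FPKM in GFP- cells. *Irf9*, which binds DNA in that complex, was at 7.29 FPKM in GFP+ cells and 8.23 FPKM in GFP- cells and turned above 0 under both other scalings.

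*Irf1*, an early target of interferon-gamma, was at 64.8 FPKM in GFP+ cells and 39.2 FPKM in GFP- cells. *Irf8*, best known from myeloid and B cells, was the most abundant Irf gene in GFP-, at 45.4 FPKM in GFP+ cells and 104 FPKM in GFP- cells, a difference of -1.19. *Irf3*, which starts the response to cytosolic nucleic acids, stood at 15.1 FPKM in GFP+ cells and 38.7 FPKM in GFP- cells, a difference of -1.30. *Stat6*, which acts for interleukin-4 and interleukin-13, was at 61.8 FPKM in GFP+ cells and 99.5 FPKM in GFP- cells, and *Stat5b*, which acts for growth hormone, at 17.7 FPKM in GFP+ cells and 10.4 FPKM in GFP- cells. *Irf2bpl*, related to the binding proteins of *Irf2*, was at 33.2 FPKM in GFP+ cells and 13.6 FPKM in GFP- cells, while *Irf2* itself was at 30.8 FPKM in GFP+ cells and 33.9 FPKM in GFP- cells. *Stat4* and *Irf4*, both known from lymphocytes, were listed at 0 in both libraries, and *Irf5*, a factor of macrophages, was at 0.490 FPKM in GFP+ cells and 0.605 FPKM in GFP- cells. *Stat5a*, *Irf2bp1* and *Irf2bp2* lay between -0.55 and -0.02 as deposited.

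Of 12 pathway genes for receptors, kinases and inhibitors, 1 inhibitor passed the rule as deposited and no receptor or kinase did. That is 8.33%, close to the 7.09% of all genes that were higher. *Socs1*, an inhibitor of Jak kinases that interferons induce, was at 16.4 FPKM in GFP+ cells and 2.26 FPKM in GFP- cells, a difference of 2.41. The other inhibitors lay on both sides of 0. *Socs3* was at 13.5 FPKM in GFP+ cells and 6.76 FPKM in GFP- cells, a difference of 0.90. *Ptpn2* was at 39.7 FPKM in GFP+ cells and 87.8 FPKM in GFP- cells, a difference of -1.13. *Jak1*, the kinase shared by all interferon receptors, was just under the rule at 1.95 as deposited. It was at 94.5 FPKM in GFP+ cells and 23.8 FPKM in GFP- cells. From a lower deposited difference of 1.58, *Stat3* passed the rule under both other scalings, so the *Jak1* call may depend on the scaling. The interferon-gamma receptor genes lay below 0, with *Ifngr1* at 88.9 FPKM in GFP+ cells and 189 FPKM in GFP- cells and *Ifngr2* at 63.6 FPKM in GFP+ cells and 201 FPKM in GFP- cells. The type I receptor genes were nearly level, with *Ifnar1* at 8.16 FPKM in GFP+ cells and 7.04 FPKM in GFP- cells and *Ifnar2* at 16.6 FPKM in GFP+ cells and 16.7 FPKM in GFP- cells.

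**Figure D4:**
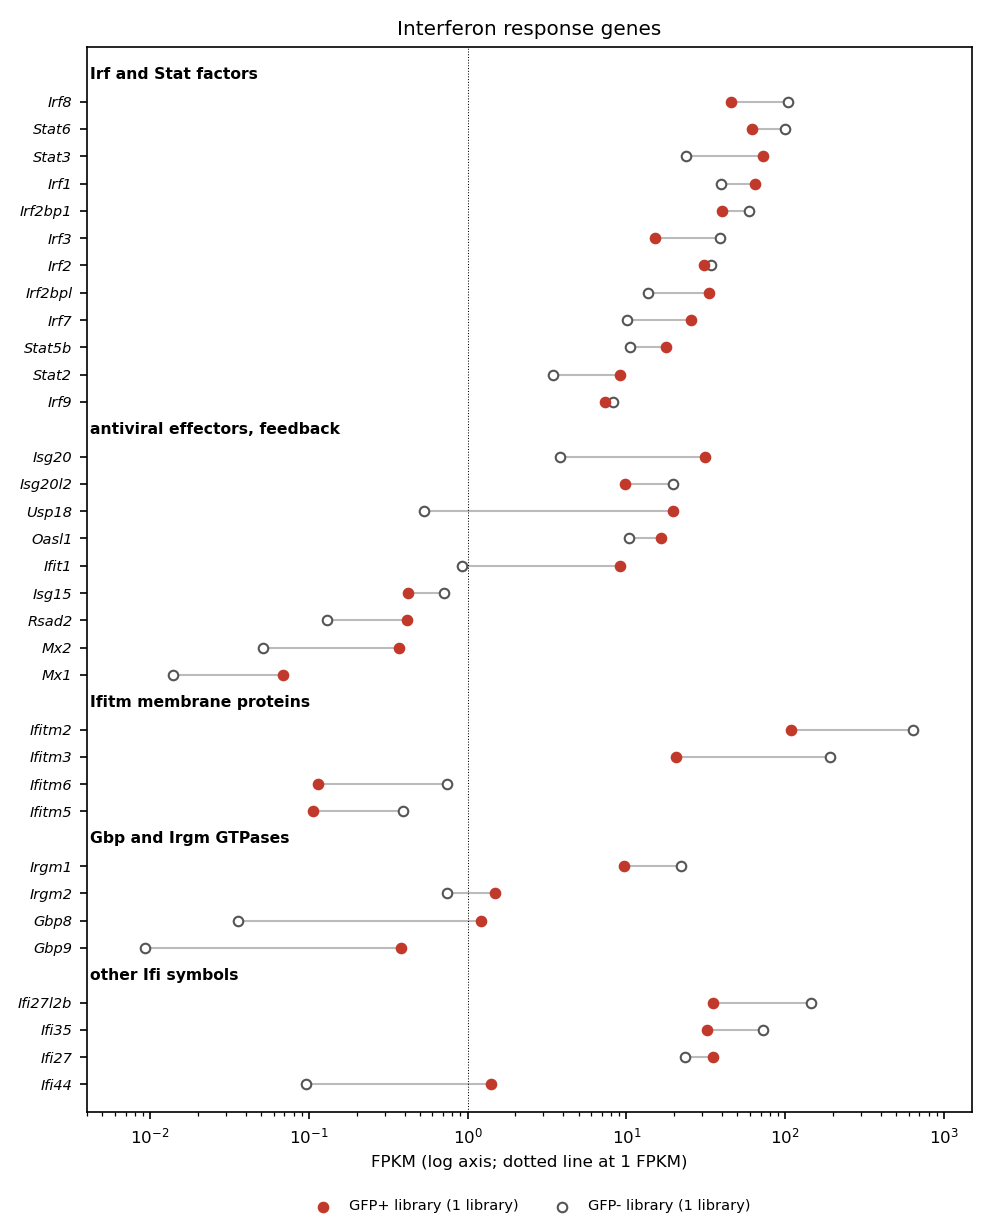
FPKM (log axis) of interferon response genes named in the text, with the GFP+ library as filled and the GFP- library as open points, by role. *Usp18*, *Isg20* and *Ifit1* are higher in GFP+, *Ifitm2* and *Ifitm3* are lower, and *Isg15*, *Rsad2*, *Mx1* and *Mx2* lie below 1 FPKM in both libraries.

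Antiviral effectors held 3 of the 4 members that were higher in GFP+. Of 22 symbols in the group, 12 reached 1 FPKM, 9 of them above 0 under each of the 3 scalings. Of the 12, 3 were higher, where 7.09% of all genes were. Of the 12, 6 were below 1 FPKM in GFP- only and 1 in GFP+ only, and of the 5 with at least 1 FPKM in both, 3 were above 0. *Usp18*, a protease that removes *Isg15* from proteins and dampens type I interferon receptors (chromosome 6, 121245906 to 121270917), was at 19.5 FPKM in GFP+ cells and 0.533 FPKM in GFP- cells. Its ratio was 36.6 and its difference of 3.74 the highest among members. These values stand for about 2069 fragments in GFP+ and 56 in GFP-, with 95% Poisson intervals of 1981 to 2160 and 42.3 to 72.7. *Isg20*, a ribonuclease (chromosome 7, 78913424 to 78920396), was at 31.2 FPKM in GFP+ cells and 3.81 FPKM in GFP- cells, a ratio of 8.18. *Ifit1*, which binds foreign RNA ends (chromosome 19, 34640889 to 34650009), was at 9.09 FPKM in GFP+ cells and 0.915 FPKM in GFP- cells, a ratio of 9.93 and a difference of 2.40. With a pseudocount of 5 *Ifit1* was at 1.25 and did not pass.

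Other well-known effectors were low in both libraries. *Isg15*, the ubiquitin-like protein that *Usp18* acts on, was at 0.418 FPKM in GFP+ cells and 0.710 FPKM in GFP- cells, and its promoter printed above holds 3 overlapping matches. *Rsad2*, the radical-forming antiviral enzyme viperin, was at 0.415 FPKM in GFP+ cells and 0.130 FPKM in GFP- cells. *Mx1* was at 0.0685 FPKM in GFP+ cells and 0.0140 FPKM in GFP- cells, the second on about 3 fragments, and *Mx2* at 0.372 FPKM in GFP+ cells and 0.0511 FPKM in GFP- cells. *Ifit2*, a neighbour of *Ifit1* within 99.3 kb of chromosome 19, was at 0.473 FPKM in GFP+ cells and 0.747 FPKM in GFP- cells, and *Ifit3* at 1.62 FPKM in GFP+ cells and 0.391 FPKM in GFP- cells.

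The Oas genes, whose enzymes make oligoadenylates that switch on an RNA-degrading nuclease, lay on both sides of 0 within their cluster on chromosome 5. Of the 5 that reached 1 FPKM there, *Oas1a* alone did so in both libraries. The filter on low values thus fixed the sign of the others. *Oas3* was at 2.49 FPKM in GFP+ cells and 0.116 FPKM in GFP- cells, a ratio of 21.4, and *Oas2* at 1.55 FPKM in GFP+ cells and 0.0437 FPKM in GFP- cells, a ratio of 35.6, the second on about 10 fragments in GFP-. Their differences of 1.64 and 1.29 missed the rule with a pseudocount of 1, and both passed it with a pseudocount of 0.1 and with a common total. *Oas1a* was at 1.62 FPKM in GFP+ cells and 5.72 FPKM in GFP- cells, and *Oas1f* at 0.0907 FPKM in GFP+ cells and 1.32 FPKM in GFP- cells. The Oas1 genes are near copies, so their single values are uncertain. *Oas1c* was at 1.22 FPKM in GFP+ cells and 0.903 FPKM in GFP- cells, and the other 5 Oas1 genes were at or below 0.531 FPKM. Of the related pair elsewhere on the chromosome, *Oasl1* was at 16.5 FPKM in GFP+ cells and 10.4 FPKM in GFP- cells, and *Oasl2* at 4.75 FPKM in GFP+ cells and 1.08 FPKM in GFP- cells. *Isg20l2*, a ribosome-processing nuclease that shares the prefix of *Isg20*, was at 9.85 FPKM in GFP+ cells and 19.6 FPKM in GFP- cells.

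Ifitm proteins, which block the entry of viruses at membranes, were represented by a pair of abundant genes, both at least 4-fold lower in GFP+. *Ifitm2* (chromosome 7, 140954839 to 140955961) was the most abundant member in GFP-, at 108 FPKM in GFP+ cells and 640 FPKM in GFP- cells, a ratio of 0.169 and a difference of -2.56. *Ifitm3* (chromosome 7, 141009590 to 141010744) was at 20.6 FPKM in GFP+ cells and 192 FPKM in GFP- cells, a ratio of 0.107 and a difference of -3.16. *Ifitm3* passed the rule under each scaling and *Ifitm2* did not with a common total, where it was at -1.94. Of their neighbours within 67.9 kb, *Ifitm6* was at 0.113 FPKM in GFP+ cells and 0.741 FPKM in GFP- cells, *Ifitm5* at 0.107 FPKM in GFP+ cells and 0.393 FPKM in GFP- cells, and *Ifitm1* at 0.0723 FPKM in GFP+ cells and 0.0386 FPKM in GFP- cells. *Ifitm7* and *Ifitm10*, elsewhere in the genome, were at or below 0.0263 FPKM. Markers of Paneth cells were at least 4-fold lower too, with the 5 summing to 357 FPKM in GFP+ cells and 5747 FPKM in GFP- cells, and their part in the Ifitm values was not tested.

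The Gbp and Irgm GTPases, which take part in defence against intracellular pathogens, were below 1 FPKM in both libraries for 10 of 13 genes. *Irgm1* was at 9.64 FPKM in GFP+ cells and 22.2 FPKM in GFP- cells, a difference of -1.12, and *Irgm2* at 1.48 FPKM in GFP+ cells and 0.745 FPKM in GFP- cells. Of 11 guanylate-binding protein genes, *Gbp8* alone reached 1 FPKM, at 1.20 FPKM in GFP+ cells and 0.0359 FPKM in GFP- cells, the second on about 5 fragments. Its neighbour *Gbp9* was at 0.378 FPKM in GFP+ cells and 0.00934 FPKM in GFP- cells, about 99 fragments in GFP+ and 2 in GFP-. *Gbp2*, *Gbp3*, *Gbp4*, *Gbp6*, *Gbp7* and *Gbp10* were at or below 0.121 FPKM. *Gbp2b*, *Gbp5* and *Gbp11* were listed at 0 in both libraries, where a 2 kb transcript at 0, with 3 fragments as the limit, allows up to 0.0251 FPKM in GFP+ cells and 0.0254 FPKM in GFP- cells.

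Of the other Ifi symbols, 4 of 11 reached 1 FPKM. *Ifi27l2b* (chromosome 12, 103450898 to 103457223) was at 35.1 FPKM in GFP+ cells and 146 FPKM in GFP- cells, a difference of -2.03 that became -1.54 and -1.43 under the other scalings and no longer passed. Its neighbour *Ifi27* was at 34.9 FPKM in GFP+ cells and 23.5 FPKM in GFP- cells, on a locus shared with *Ifi27l2a*. *Ifi35* was at 32.0 FPKM in GFP+ cells and 72.8 FPKM in GFP- cells, and *Ifi44* at 1.41 FPKM in GFP+ cells and 0.0952 FPKM in GFP- cells. The cluster of *Ifi202b*, *Ifi203*, *Ifi204* and *Ifi205* on chromosome 1 had 3 of its 4 genes at 0 in both libraries, and *Ifi202b* was at 0.0103 FPKM in GFP+ and 0 in GFP-. *Ifi44l*, *Ifi27l2a* and the joined row of *Ifi47* were below 1 FPKM in both.

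Of a list of 26 further interferon-stimulated genes, 18 reached 1 FPKM, 14 of them above 0 and 4 below, and none passed the rule. The median difference was 0.43 over the 18 and 0.33 over the 16 with at least 1 FPKM in both libraries, where all 10199 such genes had a median of -0.24. *Lgals3bp*, a secreted glycoprotein, was the most abundant at 671 FPKM in GFP+ cells and 272 FPKM in GFP- cells, and *Samd9l* had the highest difference, 1.47, at 15.4 FPKM in GFP+ cells and 4.89 FPKM in GFP- cells. *Bst2*, which tethers budding viruses, had the lowest at -1.83, with 3.50 FPKM in GFP+ cells and 15.0 FPKM in GFP- cells. *Eif2ak2*, the RNA-activated kinase, was on a joined row at 20.2 FPKM in GFP+ cells and 61.5 FPKM in GFP- cells. The viral RNA sensor *Ifih1* was at 5.66 FPKM in GFP+ cells and 2.96 FPKM in GFP- cells, and *Ddx58* at 2.16 FPKM in GFP+ cells and 1.78 FPKM in GFP- cells.

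**Figure D5:**
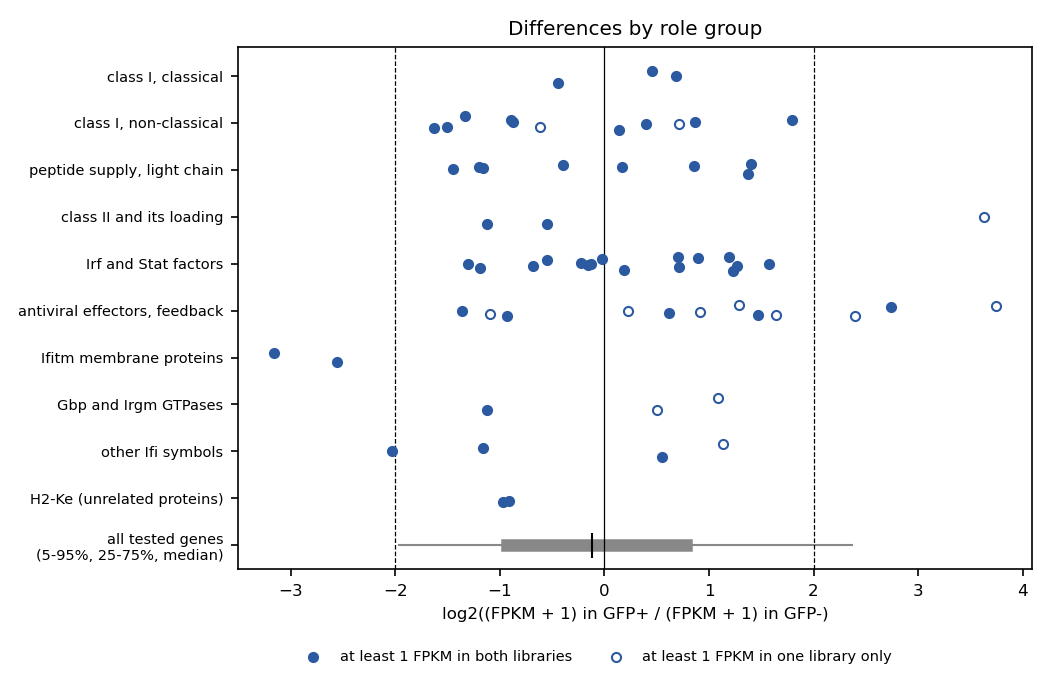
Points give the log2 difference of each member of at least 1 FPKM, by role, filled where both libraries reach 1 FPKM and open where only 1 does. The bottom row gives all 11868 genes of at least 1 FPKM, with a thin line for the 5th to 95th percentile, a box for the 25th to 75th and a tick at the median of -0.12. The dashed lines mark the 4-fold rule.

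Ranked by level, the libraries shared 5 of their 10 most abundant members: *B2m*, *H2-K1*, the row of *H2-D1* and *H2-L*, *Ifi30* and *Ifitm2*. The 10 in GFP+ also held *H2-T23*, *H2-Q2*, *Tapbp* and *Stat3*, and *Ifitm3*, *H2-Q10*, *Ifi27l2b*, *Psmb10* and *Irf8* completed those in GFP-. All members together held 0.652% of the summed FPKM in GFP+ and 0.588% in GFP-.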

How the data were processed

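FPKM values and their confidence bounds are the authors' own, deposited per gene row, 1 file per library, per the file headers. The submitters' processing notes list TopHat2 0.7, FastQC, Cufflinks, Cuffdiff and the mm10 build. Which annotation, library scaling and strand setting were used is not given in the sources used here. Cuffdiff marked 5 GFP+ rows as having too many fragments to estimate (no members). They were left out. FPKM was summed per symbol (23532 symbols) with pandas 2.3.3. Comparisons used log2(FPKM + 1) for genes whose larger value reached 1 FPKM, and a 4-fold difference set genes apart. Every member had status OK and a lower bound of 0, and above 1 FPKM a median upper bound of 2.34 times the FPKM in GFP+ and 2.33 times in GFP-, so all bounds overlapped.

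Depth is not given. Among single-transcript genes over 3000 bases (GENCODE M21), the most populated low step of the deposited FPKM, taken as 1 fragment, was worth 59.8 fragments per kilobase and FPKM in GFP+ (18 genes) and 59.0 in GFP- (40 genes). Fragment numbers rest on this step and on the longest annotated coding transcript, and their intervals hold counting error alone, since fragments copied by PCR are not separate molecules. Without a strand setting, overlapping genes cannot be separated.

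The members and lists were chosen with earlier results of these data known. Named members are those that reached 10 FPKM, those past the rule, the 4 most abundant of each role, and the main genes of the pathway (62 in all). Others are given to account for the group, and a few genes are not reported here by name. The computation was tested on simulated data. Alternatives were another pseudocount, filter and scaling, and leaving out joined rows.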

Additional observations from a re-analysis of the deposited data

How the results depend on the processing

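No paired analysis was possible because each fraction has 1 library, and for the same reason no library could be left out. With a pseudocount of 0.1, 1524 genes and 9 members were higher, and 809 genes and 4 members, with *Oas1f* added, were lower. With a pseudocount of 5, 353 genes were higher and 315 lower. With the median ratio set to 0, 1317 genes were higher and 184 lower, with 7 members higher. With a common total, 1717 genes were higher and 153 lower, with 10 members higher and 1 lower. As deposited, 841 genes were higher and 545 lower, with 4 members higher and 3 lower.

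The median difference of members, 0.16 as deposited, was 0.00 with no filter on low values and -0.14 with a filter of 5 FPKM. With the median ratio at 0 before the filter, the medians turned above 0 for class II and its loading (0.32), peptide supply (0.35) and the other Ifi symbols (0.18), and with a common total they were 0.53, 0.47 and 0.11. Rescaling before the filter also changes which genes enter: over the 3 class II genes that entered as deposited, the median stayed below 0, at -0.21 and -0.14. The Ifitm median was -1.94 with a common total and -0.33 with no filter, against -2.86 as deposited, and -2.26 with a common total over the same 2 genes. With no filter, the medians of non-classical class I (0.00), class II (0.022), transcription factors (0.00) and other Ifi symbols (0.00) were at or near 0, since genes near 0 in both libraries enter them. With a filter of 5 FPKM, class II was at 1.25, over *H2-Ab1* (3.63) and *Ifi30* (-1.12) alone. The GTPases were at -1.12, the value of *Irgm1* alone. These role medians rest on few genes, and the cause of the other shifts was not tested.

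Of the 7 members past the rule, *Usp18*, *H2-Ab1*, *Isg20* and *Ifitm3* passed it under all 7 alternatives. *Ifit1* missed it with a pseudocount of 5, *Ifitm2* with a common total, and *Ifi27l2b* with a pseudocount of 5 and under both other scalings. No member that passed changed sign. Leaving out joined rows moved no call among members.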
